A study of Mus musculus with 6 samples.

Results

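The genes described here are 44 genes of DNA break repair and of the checkpoint that answers DNA breaks. They were chosen by their symbols on the array, and each had at least 1 probe among the 31708 genes with a named probe. Their RNA was measured in myeloid cells sorted out of the infarcted wall of the left ventricle, in samples heart 1, heart 2 and heart 4, and out of the spleen, in samples spleen 1, spleen 2 and spleen 4. All 6 samples, 3 per tissue, came from C57BL/6N wild-type mice at 3 days after acute myocardial infarction, so the spleens are those of infarcted mice too, and no uninjured heart or spleen was analysed here. The sort took cells with high CD45 and CD11b and low staining for B220, Thy-1.2, NK-1.1, DX5 and Ly6G. Whether a heart and a spleen of one number came from the same mouse is not given in the sources used here, and the p-values measure the spread between these samples.

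Homologous recombination mends a broken chromosome by copying the intact sister chromatid, and so works in cells that are replicating or have replicated their DNA, while end joining seals the ends directly at any stage of the cell cycle. Sensors find the break, the kinases ATM and ATR signal it, and the Fanconi anaemia proteins unhook cross-links between the strands. Many recombination and Fanconi genes are transcribed together with replication genes, under E2F factors, and their RNA is usually higher in dividing than in resting cells.

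Repair genes were called lower in the heart cells more than higher. Of the 40 members that could be tested, 17 were called lower in heart and 1, Rad51c, was called higher (limma, two-sided, with adjusted p under 0.05 by Benjamini-Hochberg over the 17783 genes tested). Among all tested genes 6.51% were called lower and 8.88% higher, or 15.4% in either direction. The median log2 fold change, heart minus spleen, was -1.00 over the tested members against 0.10 over all tested genes, and it was negative for 34 of the 40. A gene was tested when all 3 arrays of either tissue had its probe well above background, a filter that a gene measured in the spleen alone can pass. The 32 members well above background on all 6 arrays had a median of -0.83, with 11 called lower and 1 higher, where 5.11% of such genes were called lower and 8.48% higher. Every heart array was below every spleen array in 24 of the 40 members (16.5% of all tested genes), and above in 1 (24.6%). In these bulk samples, fewer cells of a type and less RNA per cell cannot be told apart.

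**Figure D1:**
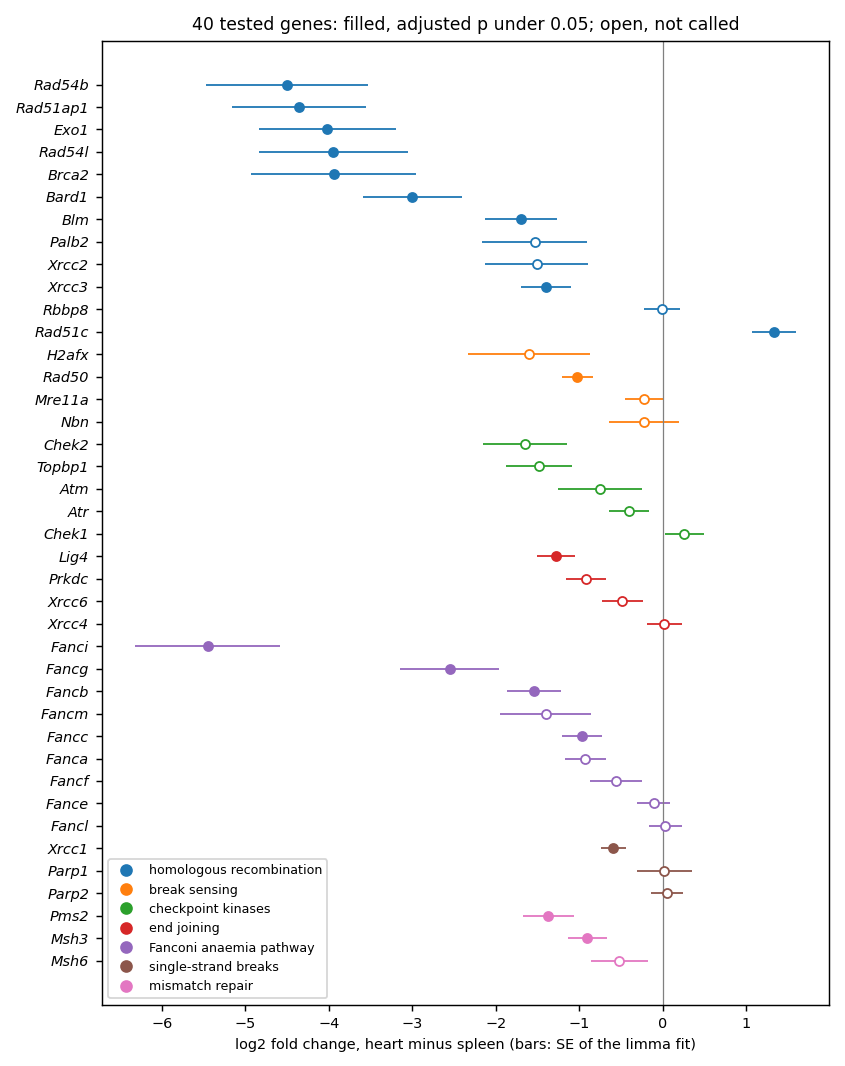
Log2 fold change (heart minus spleen, horizontal axis) of the 40 tested members, grouped by role down the page, with the SE of the limma fit as bars. Filled points passed an adjusted p of 0.05: the 17 filled points left of 0 include 8 of homologous recombination and 4 of the Fanconi pathway, and Rad51c is the 1 filled point right of 0.

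The adjusted p-values of the 17 lower members lay between 0.0139 and 0.0482. Leaving out heart 1 or heart 4 left 0 members called lower (0.669% and 0.917% of all genes tested in those fits), and leaving out heart 2 left 1, Fancg (0.697%). Leaving out spleen 1 left 9 (6.95%), leaving out spleen 2 left 7 (4.93%), and leaving out spleen 4 gave 25 (9.56%). With the slide as a fixed block 0 members were called (0.0169%). The only slide that held both tissues carried heart 1 and spleen 4, and on it 30 of the 40 tested members were lower in heart (75%), against 46.4% of all tested genes. The median of the tested members stayed negative in each of these fits. Rad51ap1, Bard1, Rad50, Lig4 and Fanci were called without each of the spleen arrays in turn. With the mean of a gene's tested probes in place of 1 probe, Bard1 and Fancc were not called. With normexp background correction, Brca2, Rad54l, Rad54b, Blm, Fancc and Fancg were not called, and with weights per tissue for the arrays, Brca2, Rad54b, Xrcc3, Fancg, Xrcc1 and Msh3 were not. The titles give heart 4 and spleen 4 a later date than the other 4 arrays, so spleen 4 is the only spleen of its date. With that date as a block, Brca2, Rad54b, Xrcc1 and Msh3 were not called.

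**Figure D2:**
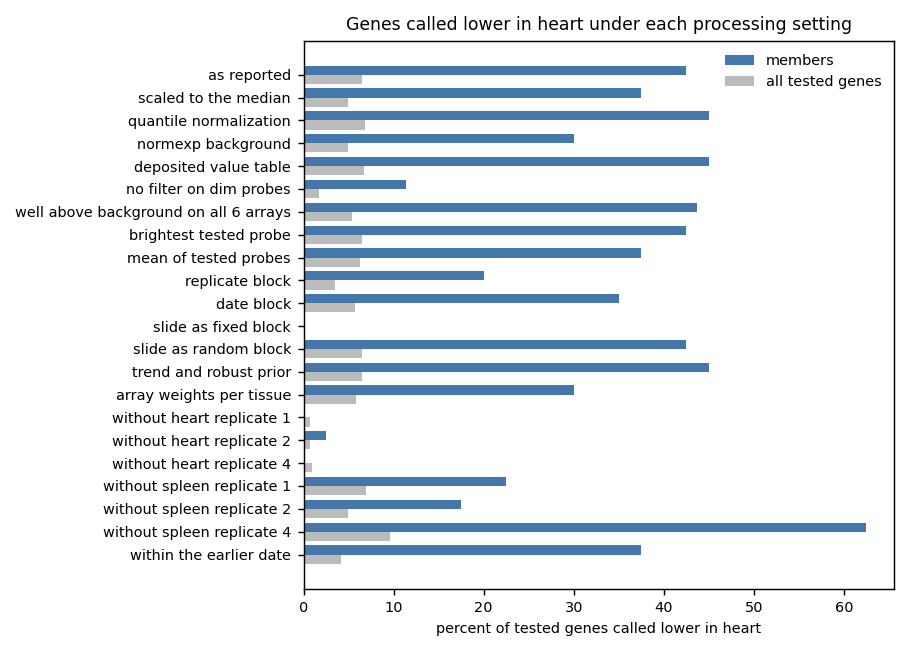
Percent of tested genes called lower in heart (horizontal axis, from 0) under each processing setting, for the members in blue and for all tested genes in grey. The members' bar stands for 17 of 40 as reported, and it is 0 without heart 1, without heart 4 and with the slide as a fixed block, and longer than the grey bar in the other settings drawn.

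Markers of dividing cells and of other blood cells differed between the tissues and among the spleens. Among all tested genes 6.51% were called lower in heart and 8.88% higher. Of 24 tested proliferation markers, 15 were called lower in heart and 1, Tyms, higher, with a median log2 fold change of -3.41. Their summed level, where 1 is the 75th percentile signal of the array, was 23.7 to 26.4 on the heart arrays, against 117 on spleen 1, 260 on spleen 2 and 38.4 on spleen 4. Of 12 granulocyte precursor markers, 10 were called lower, and their sum was 18.1 to 18.4 on the heart arrays against 501, 1004 and 259 on spleen 1, spleen 2 and spleen 4. Markers of B cells summed to 2.68 to 3.06 in heart and 4.51 to 110 in spleen, those of T and NK cells to 6.28 to 7.93 and 8.75 to 92.7, and those of erythroid precursors to 9.45 to 44.6 and 10.2 to 216, each highest in spleen 1. In these lists 0 of 6, 1 of 6 (Gzma) and 0 of 8 tested genes were called lower. Fibroblast and cardiomyocyte markers were called higher in heart for 5 of 6 and 3 of 6 tested genes. Only 2 tested genes of each list were well above background on all arrays, and of these 1 and 0 were called higher. The fibroblast sum was 1.88 to 5.19 on the heart arrays, against 11.8, 0.587 and 0.199 on spleen 1, spleen 2 and spleen 4. The cardiomyocyte sum was 0.631 to 0.975 in heart and 0.260 to 0.470 in spleen. All 8 measured markers of the sorted cells were well above background on all arrays, with a median log2 fold change of 0.89. The values were -0.11 for Ptprc (CD45) and 0.04 for Itgam (CD11b), every heart was above every spleen for 4 of the 8, and 1, Fcgr1, was called higher. The part of these other cells in the results on repair genes was not tested.

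Recombination genes, the largest role, made up the largest part of the lower group, with 8 of the 12 tested of 14 listed. That is 66.7%, as for the mismatch repair genes, against 6.51% of all tested genes. Of the 6 recombination genes well above background on all 6 arrays, 4 were called lower. Values are log2 levels relative to the 75th percentile of the array. Rad51ap1, a DNA-binding protein of homologous recombination, was at -4.96, -4.14 and -4.27 in heart 1, heart 2 and heart 4, against 0.20, 1.41 and -1.90 in spleen 1, spleen 2 and spleen 4. The tissues did not overlap, the hearts spanned 0.82 log2 units and the spleens 3.31, and spleen 2 was highest and spleen 4 lowest. The log2 fold change was -4.36 ± 0.80 (SE, n = 3 each, limma adjusted p = 0.0199).

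Rad54b, a DNA translocase of homologous recombination, was at -7.48, -7.01 and -5.05 on the heart arrays, none of them well above background, against -2.13, -0.30 and -3.61 on the spleen arrays. Its level was at least 8.27-fold lower in heart (limma adjusted p = 0.0298). Here and below, a bound uses a floor for each array whose probe was not well above background. That floor is the lowest signal called well above background on the array, or the probe's own where that was higher. The adjusted p printed with a bound is from the fit on the measured signals, dim arrays included, and does not test the bound. The related translocase Rad54l was at -4.65, -5.20 and -4.80 in heart, against -0.74, 0.85 and -2.92 in spleen. It was well above background on 2 of 3 heart arrays and its log2 fold change was -3.95 ± 0.89 (adjusted p = 0.0332 by limma), or -3.81 with the dim array at that floor.

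Exo1, the exonuclease that lengthens the single-stranded tail at a break, was at -5.32, -4.89 and -4.35 in heart, against -0.33, 0.56 and -2.73 in spleen. The groups were separate, with the same order among the spleens. Only 1 heart array was well above background, and the log2 fold change was -4.02 ± 0.82 (adjusted p = 0.0258 by limma), or -3.98 with the floor. For Rad54b, Rad54l and Exo1 the call was also lost without spleen 1, and for Rad54b and Exo1 without spleen 2.

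The other lower recombination genes were Brca2, at -3.94 (adjusted p = 0.0447 by limma, and -2.94 with the floor, 1 of 3 heart arrays being well above background), the Brca1 partner Bard1 at -3.00 (0.0237), the helicase Blm at -1.70 (0.0459) and the recombination gene Xrcc3 at -1.40 (0.0297). The calls of Brca2 and Blm were lost without spleen 1 or spleen 2, and that of Xrcc3 without spleen 2. Palb2, which joins BRCA1 to BRCA2, and Xrcc2 had log2 fold changes of -1.54 (adjusted p = 0.150) and -1.51 (0.150) and were not called. Their probes were well above background on 1 and 2 of 3 heart arrays, and the values with the floor were -1.20 and -1.48. Xrcc2 was called without spleen 4 and within the earlier date. Rbbp8, which starts the resection of broken ends as CtIP, was at 2.30, 2.35 and 1.92 in heart and 1.92, 2.39 and 2.31 in spleen. Its groups overlapped fully, at a log2 fold change of -0.02 (adjusted p = 0.970). Brca1 was not well above background on any of the 6 arrays, and Brip1, its helicase partner, reached it on 1 heart and 2 spleen arrays, so neither was tested.

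Probes of a gene did not always give the same answer, as 2 genes singled out after their values were seen show. A second Bard1 probe, well above background on all 6 arrays, had a log2 fold change of 0.35 (limma adjusted p = 0.349 over all tested probes). The probe with the higher mean level over the 6 arrays had -3.00. The second was the brighter on every heart array, at -1.07, -1.16 and -1.37 against -3.00, -2.74 and -2.76. It was the dimmer on every spleen array, at -1.94, -1.25 and -1.47 against 0.19, 1.42 and -1.09. A second Palb2 probe gave -2.67 (adjusted p = 0.0332) where the first was not called. Of the 11 members with more than 1 probe, Fance and Fancl had a second probe above background on all arrays too. These differed from the first by no more than the SE of the fit. A second Fancc probe, well above background on 1 heart and 3 spleen arrays, gave -1.07 and was not called (limma adjusted p = 0.169 over all tested probes). Among lower members, dimmer probes that were not tested gave 0.56 and -0.92 for Msh3, -0.67 for Rad54b, -1.56 for Pms2 and -1.14 for Bard1.

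Rad51c was at 6.58, 6.80 and 6.79 in heart, against 4.94, 5.35 and 5.89 in spleen, a log2 fold change of 1.33 ± 0.27 (adjusted p = 0.0251 by limma) that was not called without any one heart array or without spleen 2. It is shown in full because it was the only member called higher, and was chosen for that after its values were seen. Its only probe lies at chr11:87190997-87191056 (mm9) and opens with 8 repeats of TG, in capitals in the first 30 of its 60 bases, 5′ to 3′:
Rad51c probe: TGTGTGTGTGTGTGTGgtggtggtggtgtt
The same run of 8 repeats is in 68 other tested probes, whatever gene they name. Of these, 66 were called higher in heart, 0 lower and 68 had a positive log2 fold change, with a median of 1.52. Of all 21849 tested probes 8.94% were called higher, with a median of 0.11. The change of the Rad51c probe lay within the spread of those probes, and whether it reports Rad51c RNA was not tested. Among the members, only the Rad51c probe was not matched to a RefSeq transcript. Ung, the uracil glycosylase of base excision repair, was called higher (1.54, adjusted p = 0.0234) on a probe with a run of 16 repeats.

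**Figure D3:**
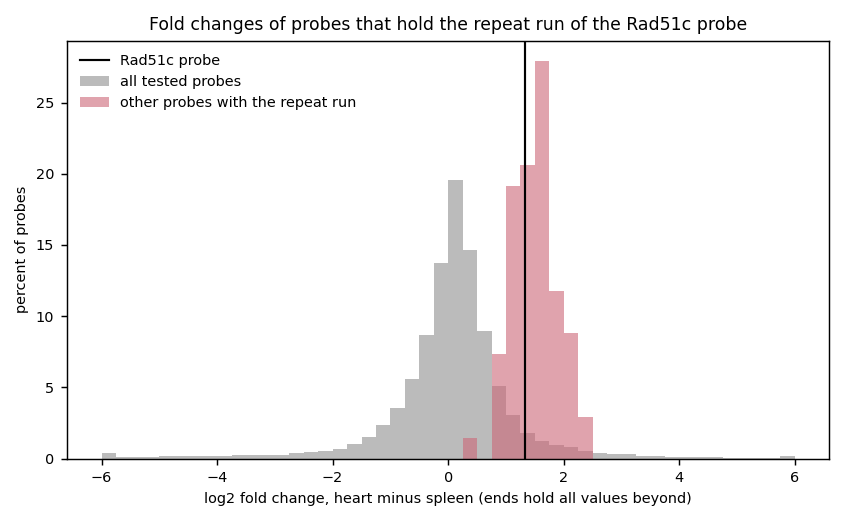
Percent of probes (vertical axis) by log2 fold change, heart minus spleen (horizontal axis, end bins open), for all 21849 tested probes in grey and for the 68 other probes with the repeat run in red. The black line marks the Rad51c probe at 1.33, inside the red distribution, whose median is 1.52, where the grey one centres on 0.11.

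Of the 4 genes grouped under break sensing, which include the histone variant H2afx, 1 was called. Rad50, the coiled-coil subunit that holds the ends together, was at -0.73, -0.72 and -0.64 in heart, against 0.44, 0.47 and 0.06 in spleen. All hearts were below all spleens, and the log2 fold change was -1.02 ± 0.18 (adjusted p = 0.0183 by limma). A dimmer second Rad50 probe, above background on 2 arrays of each tissue and not tested, had -0.14. Its partners Mre11a, the nuclease, and Nbn had log2 fold changes of -0.23 (adjusted p = 0.553) and -0.22 (0.757). H2afx, the histone variant phosphorylated around breaks and now named H2ax, was at 2.50, 2.43 and 2.46 in heart, against 4.06, 5.64 and 2.51 in spleen. The hearts nearly coincided and spleen 4 lay beside them, and the change of -1.61 ± 0.73 was not called (adjusted p = 0.188), but was without spleen 4.

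None of the 5 checkpoint genes was called. Atr, the kinase that answers single-stranded DNA, was at -0.42, -0.35 and -0.41 in heart, against 0.47, -0.29 and -0.14 in spleen, a log2 fold change of -0.41 (adjusted p = 0.290 by limma). Its activator Topbp1 had -1.48 (adjusted p = 0.0538) and the kinase Chek2, which ATM activates, -1.65 (0.0772), each with no overlap between the tissues. Atm itself had -0.76 (0.351) and Chek1, the main target of ATR, 0.26 (0.505). Topbp1 passed the threshold under 8 of the alternatives, median scaling and the leaving out of spleen 4 among them, and Chek2 only without spleen 4.

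Of the 4 tested end joining genes, 1 was called. Lig4, the ligase that seals the ends, was at -2.27, -2.17 and -2.23 in heart, against -0.62, -0.86 and -1.34 in spleen. All hearts were below all spleens, at -1.28 ± 0.23 (adjusted p = 0.0176 by limma). Xrcc6, the Ku70 subunit that binds the ends, was at 1.31, 1.38 and 1.58 in heart, against 2.24, 2.03 and 1.45 in spleen, where heart 4 was above spleen 4, and was not called (-0.49, adjusted p = 0.235). Prkdc, the kinase that Ku recruits, had -0.92 (0.0515) and the ligase partner Xrcc4 0.02 (0.967). Prkdc passed the threshold under 2 of the alternatives, the leaving out of spleen 2 among them, and Xrcc6 only without spleen 4. Xrcc5, the Ku80 subunit, was not tested: it was at -6.47 and -5.44 on heart 1 and heart 4, with an outlier spot left out on heart 2, against -0.32, -2.32 and -7.05 on the spleen arrays, well above background on 1 and 2 of them.

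Of the 9 tested Fanconi anaemia genes 4 were called lower, among them the member with the lowest adjusted p, Fanci. Fanci and Fancg passed the filter through the spleen arrays alone. Of the 7 Fanconi genes well above background on all 6 arrays, 2 were called lower (28.6%), against 5.11% of all such genes. Fanci, which forms with FANCD2 the clamp at the centre of the pathway, was at -6.81, -6.83 and -6.34 in heart, where no array was well above background, against -0.73, 0.37 and -3.26 in spleen. It was at least 16.3-fold lower in heart. The fit on the measured signals, with all 3 hearts dim, had an adjusted p of 0.0139 (limma). Fancd2 was well above background on 0 of 3 heart and 2 of 3 spleen arrays, with levels of -3.53, -2.26 and -7.26 in spleen, and was not tested.

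Fancg, Fancb and Fancc, subunits of the core complex that attaches ubiquitin to this clamp, were the other lower members. Fancg was at -7.18, -5.49 and -7.28 in heart, again not well above background, against -3.43, -3.98 and -4.90 in spleen, at least 2.19-fold lower (limma adjusted p = 0.0358). Fancb was at -2.93, -2.89 and -2.71 in heart, against -1.03, -0.85 and -2.00 in spleen (-1.55 ± 0.32, adjusted p = 0.0277 by limma). Fancc was at -4.36, -4.31 and -4.44 in heart, against -3.00, -3.38 and -3.80 in spleen (-0.97 ± 0.24, adjusted p = 0.0414 by limma). In each of the 3 all hearts were below all spleens. Fancg and Fancb were not called without spleen 1 or without spleen 2. Fancc was not called without spleen 2, with median scaling or with the mean of its tested probes.

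The other 5 tested genes of the pathway were not called. Fancl, the ubiquitin ligase of the complex, was at 0.55, 0.97 and 1.01 in heart and at 0.71, 0.81 and 0.93 in spleen, with full overlap (0.03, adjusted p = 0.941 by limma). Fance, Fancf, Fanca and Fancm had log2 fold changes of -0.11 (adjusted p = 0.735), -0.56 (0.277), -0.93 (0.0509) and -1.41 (0.137). Fanca passed the threshold under 6 of the alternatives, quantile normalization and the leaving out of spleen 1 among them. Fancm passed without spleen 4 and within the earlier date, and Fancf without spleen 4.

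Among the genes of single-strand breaks, Xrcc1, the scaffold of that repair, was at 0.81, 0.81 and 0.82 in heart, against 1.36, 1.50 and 1.36 in spleen. Both tissues were tight and separate, and the change was small, -0.59 ± 0.15 (adjusted p = 0.0482 by limma), with the call lost under median scaling. Parp1, which marks breaks with ADP-ribose, was at -0.16, 0.06 and 0.30 in heart and at 0.72, -0.14 and -0.43 in spleen. It overlapped between the tissues, with 0.02 (adjusted p = 0.978), and Parp2 had 0.05 (0.890).

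Of the 3 mismatch repair genes 2 were called. Pms2, a subunit of the MutL endonuclease, was at -2.44, -2.48 and -2.67 in heart, against -0.79, -0.87 and -1.81 in spleen (-1.37 ± 0.30, adjusted p = 0.0320 by limma). Msh3, which recognises loops, was at -0.93, -0.45 and -0.40 in heart, against 0.61, 0.15 and 0.18 in spleen (-0.91 ± 0.23, adjusted p = 0.0468 by limma). Neither gene overlapped between the tissues. Both calls were lost without spleen 1 or spleen 2, and that of Msh3 under median scaling. Msh6, which recognises single mispairs, was at 0.43, 0.59 and 0.73 in heart, against 1.51, 1.47 and 0.35 in spleen. Spleen 4 was below all hearts, and the gene was not called (-0.52, adjusted p = 0.348 by limma), but was without spleen 4.

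**Figure D4:**
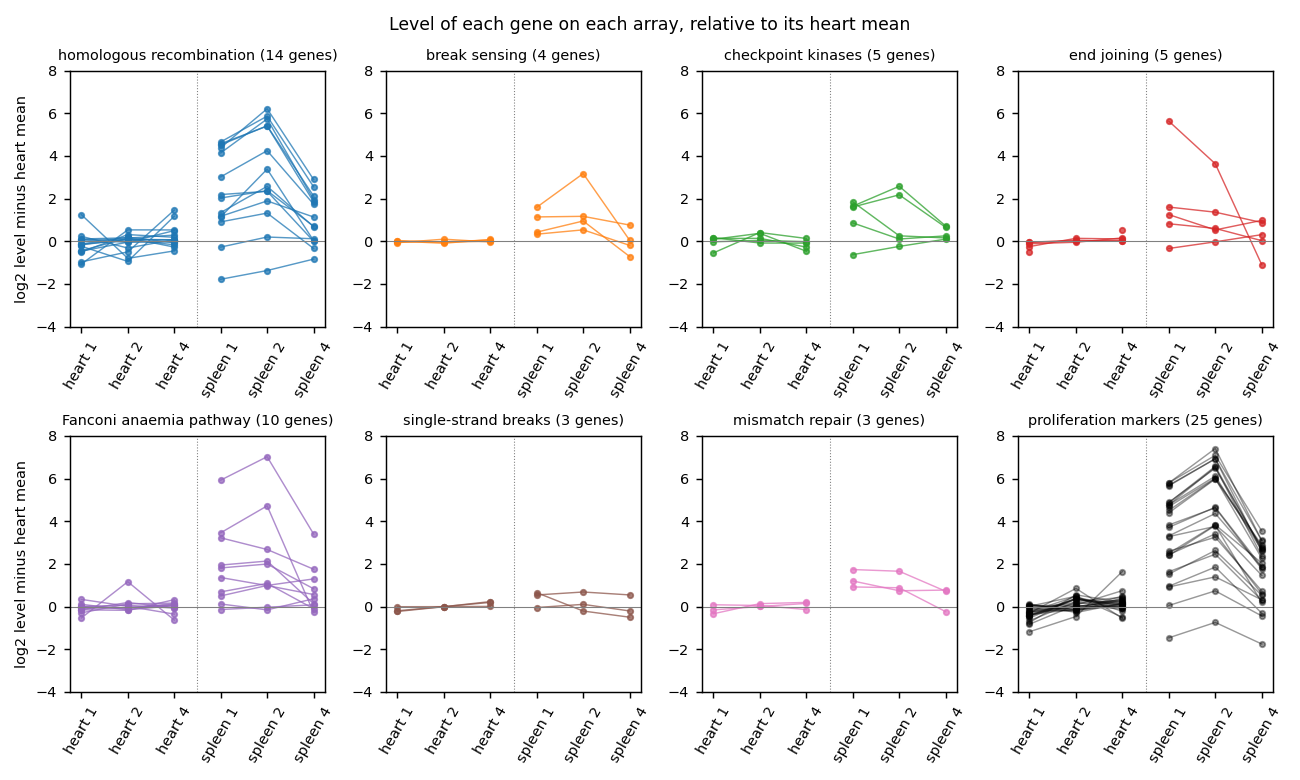
Log2 level of each gene on each array minus its mean over the heart arrays (vertical axis), one panel per role and a last panel for the 25 proliferation markers, hearts left of the dotted line, with a thin line joining the points of a gene within a tissue. Of the spleens, spleen 2 is highest for 13 of 14 recombination genes and for all 25 proliferation markers. Spleen 4 is lowest for 12 of 14 and for all 25, untested genes included.

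The spleens themselves differed, and by role. The median range over the 3 spleen arrays was 1.15 log2 units for the tested members, against 0.77 for all tested genes, while over the heart arrays it was 0.29 and 0.28. Of the 14 recombination genes, 13 were highest in spleen 2 and 12 lowest in spleen 4. These include untested Brca1, dim on all 6 arrays, and among the 12 tested genes the counts were 11 and 10. All 4 genes grouped under break sensing were also highest in spleen 2. Of the 5 end joining genes, 4 were highest in spleen 1 (3 of the 4 tested), as were all 3 mismatch repair genes. Over all 44 members, 26 were highest in spleen 2, 12 in spleen 1 and 6 in spleen 4, and 33 were lowest in spleen 4. Among the 40 tested, these counts were 23, 11, 6 and 29. Of all tested genes 34.4% were highest in spleen 2, 21.8% in spleen 1 and 43.7% in spleen 4, and 28.7% were lowest in spleen 4. All 25 proliferation markers and 11 of 12 granulocyte precursor markers were highest in spleen 2, and all 13 erythroid, all 8 B cell and 9 of 10 T and NK cell markers in spleen 1. These are descriptions of 3 arrays with no test. Spleen 4 was on another slide and has a later date than spleen 1 and spleen 2, so sample, slide and date cannot be told apart here. The share of probes well above background was 63.8% on spleen 1, 60.2% on spleen 2 and 56.2% on spleen 4.

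**Figure D5:**
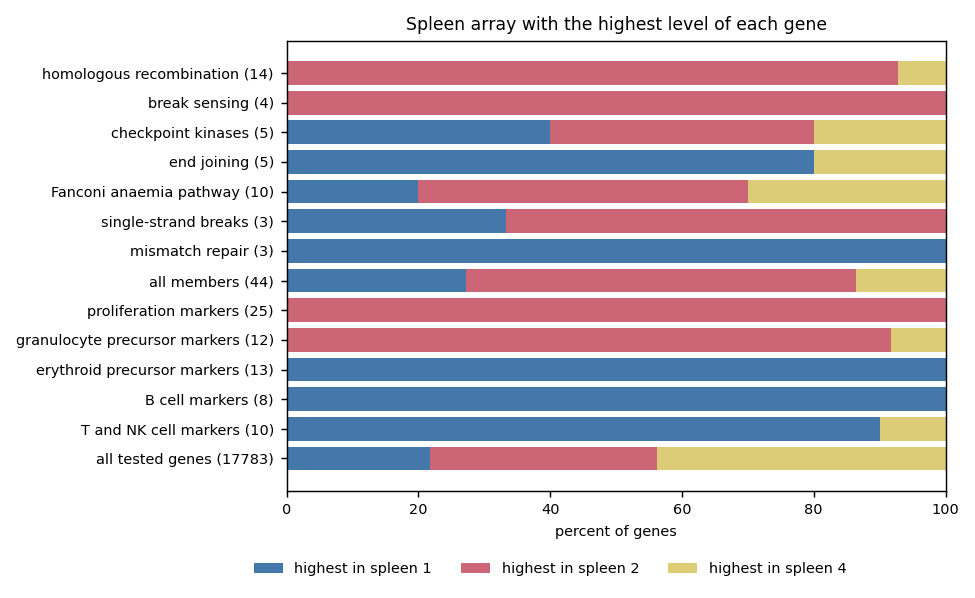
Percent of the genes of each group (horizontal axis) that were highest in spleen 1, spleen 2 or spleen 4, with the number of genes in brackets. Untested members and markers are included. Spleen 2 is highest for 13 of 14 recombination genes, 4 of 4 break sensing genes and all 25 proliferation markers. It is also highest for 5 of 10 Fanconi genes and 2 of 5 checkpoint genes. Spleen 1 is highest for 4 of 5 end joining and 3 of 3 mismatch repair genes.

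The arrays heart 1 and heart 4 were set against spleen 4, with which heart 1 shares the slide and heart 4 the date. In heart 4, 31 of the 40 tested members were lower than in spleen 4 (77.5%), against 49.3% of all tested genes. The other 9 included Nbn, Mre11a, Msh6 and Fancf. The median difference from spleen 4 over the tested members was -0.55 for heart 1, on the same slide, and -0.58 for heart 4, against 0.06 and 0.01 over all tested genes. These arrays are among those that made the calls.

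Repair genes outside the 44 were read beside the members. Of 38 tested genes of break repair and checkpoints, 7 were called lower and 1 higher, with a median log2 fold change of -0.70. Of the 34 well above background on all 6 arrays, 5 were called lower and 1 higher. Over all 38 tested, the 7 lower genes were 18.4%, against 6.51% of all tested genes. The lower ones included Polq, the polymerase of microhomology-mediated joining, at least 5.65-fold lower (limma adjusted p = 0.0215), the ATR activator Etaa1 (-2.56, adjusted p = 0.00401) and Rad52 (-2.51, 0.00441). The higher one was Dclre1c, the Artemis nuclease that opens ends for joining (1.14, 0.0474). Brcc3, the brightest in heart of those not called, had -0.06 (0.855). Rad52 was at -4.04, -3.71 and -3.08 in heart, against -1.17, -1.14 and -1.01 in spleen, with the spleens nearly equal.

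Of 18 tested mismatch and base excision repair genes outside the 44, 5 were called lower and 1, Ung, higher, with a median log2 fold change of -0.69. The lower share was 27.8%, against 6.51% of all tested genes. Of the 17 well above background on all 6 arrays, 4 were called lower and 1 higher. Neil3, a glycosylase of replicating cells, was at least 39.4-fold lower (limma adjusted p = 0.0111), and Mutyh was at -2.15 (adjusted p = 0.0313). Of 12 tested nucleotide excision repair genes, all well above background on all 6 arrays, 2 were called lower (16.7%). These were the damage sensors Xpc (-2.61, limma adjusted p = 0.0291) and Ddb2 (-1.60, 0.0456), and the median of the list was -0.04.

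In a list of genes that p53 is known to induce after DNA damage, several were higher in heart. Of 18 tested, 5 were called higher and 1, Trp53inp1 (-1.98, limma adjusted p = 0.0361), lower, with a median of 0.32. Of all tested genes 8.88% were called higher and 6.51% lower. Of the 17 p53 targets well above background on all 6 arrays, 5 were called higher and 1 lower. The list does not hold every p53 target. Xpc and Ddb2, called lower above, were listed with nucleotide excision repair and are not in these counts. Cdkn1a, the CDK inhibitor p21, was at 3.42, 3.26 and 3.31 in heart, against -1.77, -0.68 and 0.17 in spleen (4.08 ± 0.47, adjusted p = 0.00539 by limma). The groups were far apart and the hearts nearly equal. Plk3 (4.56, adjusted p = 0.00697) and Plk2 (3.80, 0.0323) were also higher, and Pmaip1, the brightest in heart of those not called, had 0.92 (0.0772). As background, these genes also respond to signals other than p53.

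Words that E2F factors are known to bind were common in the promoters of the members. RefSeq promoters (GRCm38.p6, 250 bases before to 50 after the start) were matched for 35 of the 44. The words TTCCCGC, together with TTCGCGC, and TTGCCGC, together with TTGGCGC, were searched on both strands, and 2 of them can overlap. At least 1 was in the promoters of 22 of the 35 members (62.9%), against 10.9% of all genes with a promoter in the table and 18.0% of the 9392 that were also tested. Of the lower members with a promoter 10 of 14 held a word, and of the other members 12 of 21. The CHR words TTTGAA, together with TTTAAA, on both strands, were in 4 of the 35 (11.4%), against 30.6% and 22.9% of those genes, and CCAAT on both strands in 21, against 41.1% and 42.6%. In the 150 bases nearest the 3′ end of the window, 14 of the 35 held an E2F word, 5 of the 14 lower members and 9 of the 21 others, against 6.49% of all genes and 10.69% of those tested. A match in these letters is not a measured binding site. The stretches that follow, 60 bases each, 5′ to 3′ on the strand of the gene, show the word nearest the start, in capitals, for lower members whose word lies before the start:
Brca2, chr5:150522427-150522486, plus strand: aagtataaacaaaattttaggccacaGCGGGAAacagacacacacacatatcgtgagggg
Bard1, chr1:71103147-71103206, minus strand: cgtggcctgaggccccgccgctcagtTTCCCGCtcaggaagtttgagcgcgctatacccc
Blm, chr7:80535107-80535166, minus strand: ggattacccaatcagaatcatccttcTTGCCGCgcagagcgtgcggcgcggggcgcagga
Fancb, chrX:164980394-164980453, plus strand: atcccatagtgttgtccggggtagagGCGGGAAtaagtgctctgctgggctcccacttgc
Fancg, chr4:43010319-43010378, minus strand: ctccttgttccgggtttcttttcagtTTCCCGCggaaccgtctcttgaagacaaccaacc
Lig4, chr8:9977728-9977787, minus strand: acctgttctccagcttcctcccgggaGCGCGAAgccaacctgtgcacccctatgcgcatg
Msh3, chr13:92355168-92355227, minus strand: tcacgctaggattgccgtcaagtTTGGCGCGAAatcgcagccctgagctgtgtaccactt
In Brca2, Fancb and Lig4 the capitals are the reverse complement of a word, and in Msh3 a word on each strand overlaps. Lig4 has a second start in the table, with a word of its own.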

How the data were processed

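Per the labels' protocols, 10 ng of RNA per sample was amplified in a single round and labelled with 1 dye. The deposited scanner files hold intensity per spot, which per the file headers the authors read out with version 10.7.3.1 of Agilent Feature Extraction, in the mouse build mm9. The deposited value table holds log2 values. Their differences between arrays matched quantile-normalized scanner signals (r between 0.9993 and 0.9999 across 19313 probes, 15 pairs), each column's median was 0, and the baseline of each probe is unknown. That table served as an alternative.

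Each processed signal was put on the log2 scale and the 75th percentile of its array subtracted. Control spots and outlier spots were left out, spots of a probe were averaged, and a gene took the probe with the highest mean level. Of 31708 genes, 17783 were tested between the 2 tissues with limma 3.58.1 in R 4.3.3 (two-sided moderated test, Benjamini-Hochberg), a procedure that was first tested on simulated data. At an unadjusted p under 0.05, 5689 genes passed. Per array, 53.2% to 63.8% of probes were called well above background, no spot was saturated, and 3 arrays per tissue limit the precision. Probe symbols are those of the file. Of the 44 members 43 matched a RefSeq transcript, and Rad51c did not. Exon positions were not analysed here. Probes of near-identical genes may share signal. Promoters were searched with Python 3.11.15.

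The slide is the array's slide in the file: 1 slide held spleen 1 and spleen 2, 1 held heart 1 and spleen 4, and 1 held heart 2 and heart 4. The members, the gene lists and the rule for genes given with every array's value (in each role the 4 most changed of those called, and the brightest in heart of those not called) were chosen with earlier results of these data known. Alternatives were other scalings, background correction, filters, probe choices, blocks, variance models and the leaving out of each array, and a fit on the arrays of the earlier date in the titles (heart 1, heart 2, spleen 1 and spleen 2) was added after seeing the data. Some genes of the lists are not reported by name here.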

Additional observations from a re-analysis of the deposited data

How the results depend on the processing

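The 3 arrays per tissue limit the precision, members dim on every heart array have only a bound, and those dim on some have a fitted value that rests partly on dim arrays. The 17 members called lower became 5 with no filter on dim probes, 8 with the replicate block, 0 with the slide as a fixed block and 0 to 25 when 1 array was left out. The single higher member was lost with no filter and with the slide block (0 each), and 0 to 1 remained when 1 array was left out. Over all genes, the 2737 called became 1514 with no filter, 1556 with the replicate block, 51 with the slide block, 1714 within the earlier date (15 members lower, 1 higher) and 456 to 4202 when 1 array was left out. The 14 lower genes of the other repair lists became 6 with no filter, 8 with the replicate block and 0 with the slide block, and 2 to 28 when 1 array was left out. The 2 higher ones became 1 with median scaling, quantile normalization, the deposited table, the date block and within the earlier date, 0 with no filter, the replicate block and the slide block, and 0 to 4 when 1 array was left out. The remaining alternatives gave 12 to 18 lower members. The members' median stayed negative in all of them, from -0.55 to -1.16.

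The deviations of same-numbered hearts and spleens had r of -0.084, 0.071 and 0.0047 over 17672 genes. Pairs of unlike number ranged from -0.126 to 0.0931. Slide and date also differ between the arrays, so these values cannot show whether mice were shared. The sources used here do not give it, and the replicate number is not taken as a pairing.

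Log2 fold changes that turned sign were all of members that were not called. With median scaling Rbbp8 became 0.099 and Fance 0.0029. With quantile normalization Fancl became -0.063 and Parp1 -0.042, and with the deposited table -0.049 and -0.039. With the slide block Xrcc2 became 0.068, Nbn 0.65, Mre11a 0.20, Xrcc4 -0.36, Fancf 0.090, Fancl -0.38, Fancm 0.20 and Msh6 0.084. Within the earlier date Rbbp8 became 0.17, Parp1 -0.34 and Parp2 -0.13. When 1 array was left out, the values crossed 0 for Rbbp8 (-0.16 to 0.12), Nbn (-0.69 to 0.14), Xrcc4 (-0.14 to 0.18), Fance (-0.25 to 0.016), Fancl (-0.055 to 0.17), Parp1 (-0.22 to 0.35) and Parp2 (-0.051 to 0.14). The cause was not tested.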
